A study of Mus musculus with 12 samples.

Results

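Dermal fibroblast and non-collagen matrix genes were followed across 4 groups of mouse ear skin. The set was chosen by symbol, as a list of 38 genes, and all 38 were found among the 23234 symbols of the expression tables. Earlier results of these data were known at that choice, so shares of all genes set beside the list are no independent test. Of these, 37 passed a filter on low values and were tested, and the remaining gene, Fbn2, is described by its levels only. The list holds 14 genes of elastic fibres and microfibrils, 5 of cross-linking and collagen processing, 7 proteoglycans, 9 adhesive and matricellular proteins and 3 proteins of the fibroblast or pericyte surface.

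RNA was sequenced from ears of mice aged 8 to 12 weeks, with 3 libraries a group. VDRcKO_Oxarol stands for mice labelled K5-Cre;VDR f/f, in which Cre is meant to delete the vitamin D receptor gene Vdr in keratinocytes and not in fibroblasts. The cells in which Cre acted cannot be read from these libraries. Ears of these mice were taken 1 day after 100 mg of an ointment, Oxarol, that carried 2.5 µg of the vitamin D analogue maxacalcitol. WT_Oxarol stands for wild type C57BL/6J ears given the same ointment, WT_PBS for wild type ears 1 day after phosphate-buffered saline, and WT_untreated for wild type ears with no stimulus. The labels give the strain of the first group only as its genotype, no ears of that genotype without ointment and none with Cre or the floxed alleles alone are analysed here, and saline is not the ointment base. The genotype and anything else that sets that colony apart therefore cannot be told apart.

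Fibroblasts of the dermis secrete the fibres that give skin its strength and recoil. Fibrillins and their partners form microfibrils, elastin is deposited on them with the help of fibulins, and lysyl oxidases cross-link the elastin and the collagens. Small leucine-rich proteoglycans space the collagen fibrils, fibronectin and tenascins carry cells along the matrix, and latent transforming growth factor beta binding proteins hold a growth factor in store within it.

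The 12 libraries listed 17323 to 19478 symbols above 0. From the steps between their lowest values, 11 libraries held 0.048 to 0.213 of the reads of the deepest, WT_PBS replicate 3, with a factor of 2 possible either way; the VDRcKO_Oxarol libraries held 0.0802, 0.048 and 0.0595. Vdr itself stood at 23.6, 25.04 and 17.98 FPKM in VDRcKO_Oxarol ears, against 7.87, 6.68 and 7.05 FPKM in WT_Oxarol ears. Its level over the whole gene was thus higher, not lower, under the label of a deletion. Such a level cannot show the loss of an exon, so it does not settle the label, and every direction below rests on the label. Cyp24a1, a gene that the vitamin D receptor switches on, stood at 0, 0.271 and 0.175 FPKM in VDRcKO_Oxarol ears and at 66.2, 599 and 458 FPKM in WT_Oxarol ears. The library codes were split here by number into a first series, with replicates 1 and 2 of each wild type group, and a second. The second holds replicate 3 of each wild type group and all VDRcKO_Oxarol libraries. No label names these series, and what they stand for is not known. WT_untreated replicate 1 stood apart over all genes, as the lowest library for 3280 of all 14059 and the highest for 2179. Of the 37 genes tested it was the lowest for 12 and the highest for 4. WT_PBS replicate 2 was the lowest for 11 of the 37 and for 1500 of all genes. WT_untreated replicate 3 stood apart in markers of other tissues, as the highest library for 10 of 10 skeletal muscle markers, 7 of 9 smooth muscle and pericyte markers and 6 of 8 adipocyte markers; it was the highest for 4 of the 37 genes and the lowest for 4. Results are given below as FPKM (fragments for each kilobase of a transcript, relative to all that were mapped in the library), and differences on the scale of log2(FPKM + 1).

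Promoters of 5 genes that were higher in VDRcKO_Oxarol than in WT_Oxarol ears are shown so that the start of the same genes can be read beside their levels. Each holds the 250 bases before the start, from RefSeq on GRCm38.p6, printed along the gene's strand. Capitals mark a GC box, GGGCGG, or a nuclear receptor half-site, AGGTCA, on either strand. Fbn1 lies at chr2:125506439-125506688 on the minus strand, Fbln2 at chr6:91212514-91212763, Emilin1 at chr5:30913536-30913785, Bgn at chrX:73483351-73483600 and Mfap2 at chr4:141010431-141010680, each of the other 4 on the plus strand.
Fbn1: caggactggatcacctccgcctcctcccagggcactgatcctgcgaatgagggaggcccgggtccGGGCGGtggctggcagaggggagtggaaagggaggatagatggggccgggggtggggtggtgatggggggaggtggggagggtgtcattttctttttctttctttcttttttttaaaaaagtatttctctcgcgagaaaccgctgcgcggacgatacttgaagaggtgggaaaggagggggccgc
Fbln2: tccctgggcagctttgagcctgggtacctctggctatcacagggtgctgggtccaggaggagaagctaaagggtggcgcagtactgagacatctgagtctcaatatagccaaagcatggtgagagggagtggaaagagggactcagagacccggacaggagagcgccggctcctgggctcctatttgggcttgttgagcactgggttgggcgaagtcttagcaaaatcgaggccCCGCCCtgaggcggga
Emilin1: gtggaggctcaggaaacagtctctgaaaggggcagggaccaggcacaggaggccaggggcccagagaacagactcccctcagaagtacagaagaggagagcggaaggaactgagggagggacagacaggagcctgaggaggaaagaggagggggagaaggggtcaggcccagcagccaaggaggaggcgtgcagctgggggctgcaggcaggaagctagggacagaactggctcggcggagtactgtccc
Bgn: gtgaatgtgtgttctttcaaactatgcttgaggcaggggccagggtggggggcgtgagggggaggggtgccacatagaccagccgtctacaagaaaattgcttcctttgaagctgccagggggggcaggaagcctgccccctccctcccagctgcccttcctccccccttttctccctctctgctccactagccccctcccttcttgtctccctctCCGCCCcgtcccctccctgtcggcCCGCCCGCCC
Mfap2: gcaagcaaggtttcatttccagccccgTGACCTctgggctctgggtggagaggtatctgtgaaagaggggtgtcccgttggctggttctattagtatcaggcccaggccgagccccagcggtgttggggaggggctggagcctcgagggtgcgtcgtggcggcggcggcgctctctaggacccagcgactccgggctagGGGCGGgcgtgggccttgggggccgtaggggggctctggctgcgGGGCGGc
A RefSeq promoter was matched for 24 of the 38 genes, in 32 windows. A GC box was found in 13 of those 24 genes and in 16 of the 32 windows, against 32.7% of all 32851 windows of this length. The half-site was found in 4 of the 24 genes and in 15.6% of their windows, against 14.0% of all windows. TATAAA was found in 5 of the 24 genes and in 18.8% of their windows, against 12.4% of all. Bgn carries 3 GC boxes of which a pair overlaps, Mfap2 carries 2 and 1 half-site, Fbn1 and Fbln2 carry 1 each, and Emilin1 carries none of these letters in this window. These matches describe the sequence only.

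The 38 genes spanned a wide range of levels. Decorin (Dcn), a proteoglycan that coats collagen fibrils, was the most abundant, at 1635 FPKM as the mean of the 12 libraries. It was followed by Sparc, a calcium-binding matricellular protein, at 636 FPKM, by lumican (Lum) at 284 FPKM and by dermatopontin (Dpt) at 201 FPKM. At the low end Ltbp2 lay between 0.434 and 2.54 FPKM and Fbn2, a fibrillin best known from development, between 0.422 and 1.60 FPKM over all libraries. Fbn2 had 0.522, 1.39 and 1.60 FPKM in VDRcKO_Oxarol ears and 0.521, 0.578 and 0.422 FPKM in WT_Oxarol ears, so the 2 groups overlapped narrowly.

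The set was higher in VDRcKO_Oxarol ears than in WT_Oxarol ears. Of the 37 genes tested, 14 passed the limma test as higher at an adjusted p under 0.05 and 0 as lower, where 8.71% of all genes tested were called higher; 25 had an unadjusted p under 0.05. The difference was above 0 for 37 of 37, where it was so for 8440 of all 14059 genes. The median was 0.51 on the log2 scale beside 0.08 over all genes. In 29 of the 37 every VDRcKO_Oxarol library lay above every WT_Oxarol library, where 27.9% of all genes did so. Against WT_PBS ears 18 genes passed as higher and 0 as lower, beside 10.8% of all genes called higher, with a median of 0.60 beside 0.09 and 28 at an unadjusted p under 0.05. In that comparison 28 of the 37 had no overlap on the higher side, beside 31.0% of all genes. Against WT_untreated ears 14 passed as higher and 0 as lower, beside 12.8% of all genes, with a median of 0.41 beside 0.08 and 23 at an unadjusted p under 0.05, and 18 had no overlap on the higher side, beside 24.4%. Over all 14059 genes, 4531, 4818 and 5088 had an unadjusted p under 0.05 against WT_Oxarol, WT_PBS and WT_untreated. These 3 comparisons share the VDRcKO_Oxarol libraries and are not independent.

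**Figure D1:**
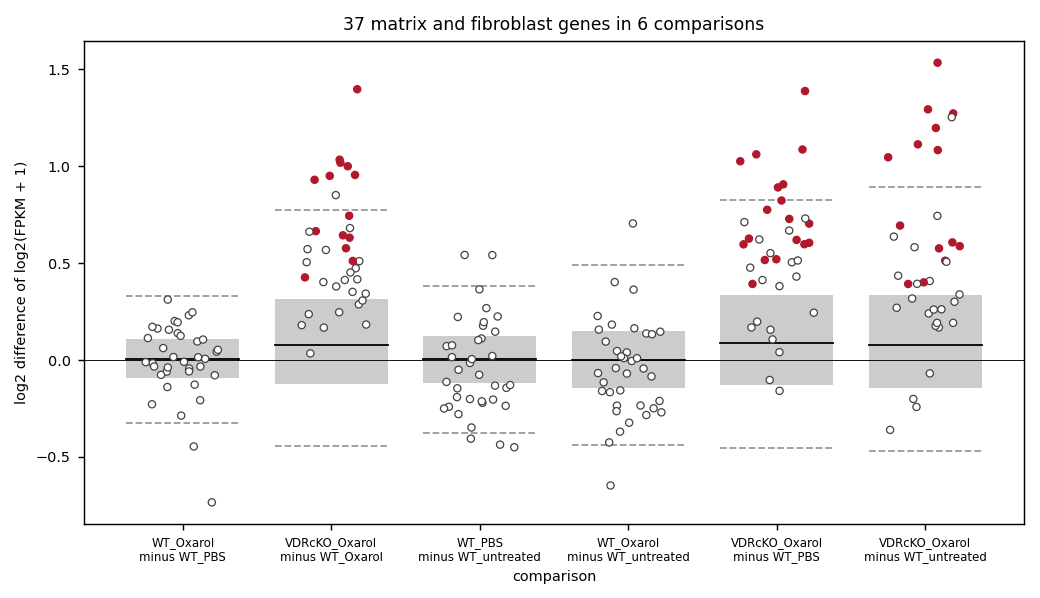
Log2 difference of log2(FPKM + 1) for the 37 genes tested (points) in each of 6 comparisons, red where the limma adjusted p was under 0.05. Grey boxes hold the middle 50% of all 14059 genes, the black line is their median and dashed lines are their 5th and 95th percentiles. In the 3 comparisons of VDRcKO_Oxarol 14, 18 and 14 points are red, and in the 3 comparisons among wild type ears 0 are.

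Between the genes, 10 were called higher against each of the 3 wild type groups: Eln, Fn1, Lox, Emilin1, Fbn1, Fbln2, Mfap4, Bgn, Pdgfrb and Efemp2. All VDRcKO_Oxarol libraries are of the second library series, and with the series as a term only Eln, Fn1 and Lox of these 10 passed in all 3 comparisons. In that fit Emilin1 passed only against WT_untreated, Bgn and Efemp2 against WT_PBS and WT_untreated, Mfap4 against WT_Oxarol and WT_PBS, and Fbn1, Fbln2 and Pdgfrb in none. Their adjusted p values against WT_Oxarol were then 0.0543 for Fbn1, 0.055 for Bgn, 0.0804 for Emilin1, 0.107 for Pdgfrb, 0.146 for Fbln2 and 0.17 for Efemp2. Another 3 (Lum, Fbln5 and Mfap2) were called in 2 of the comparisons and 10 in 1 of them, while 15, among them the untested Fbn2, were called in none. How many of all genes were called in 3, 2, 1 or none of the comparisons was not counted, so these counts have no share to be read against. In 14 of the 37 genes, or 37.8%, all 3 VDRcKO_Oxarol libraries lay above all 9 wild type libraries, where 15.0% of all genes did so. Each of the 3 VDRcKO_Oxarol libraries was the highest of the 12 for 9 of the 37 genes, beside 2817, 1276 and 1670 of all 14059 genes. Their median deviations from the 12-library mean were 0.37, 0.39 and 0.38 on the log2 scale. The wild type libraries had median deviations between -0.24 and 0.00.

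**Figure D2:**
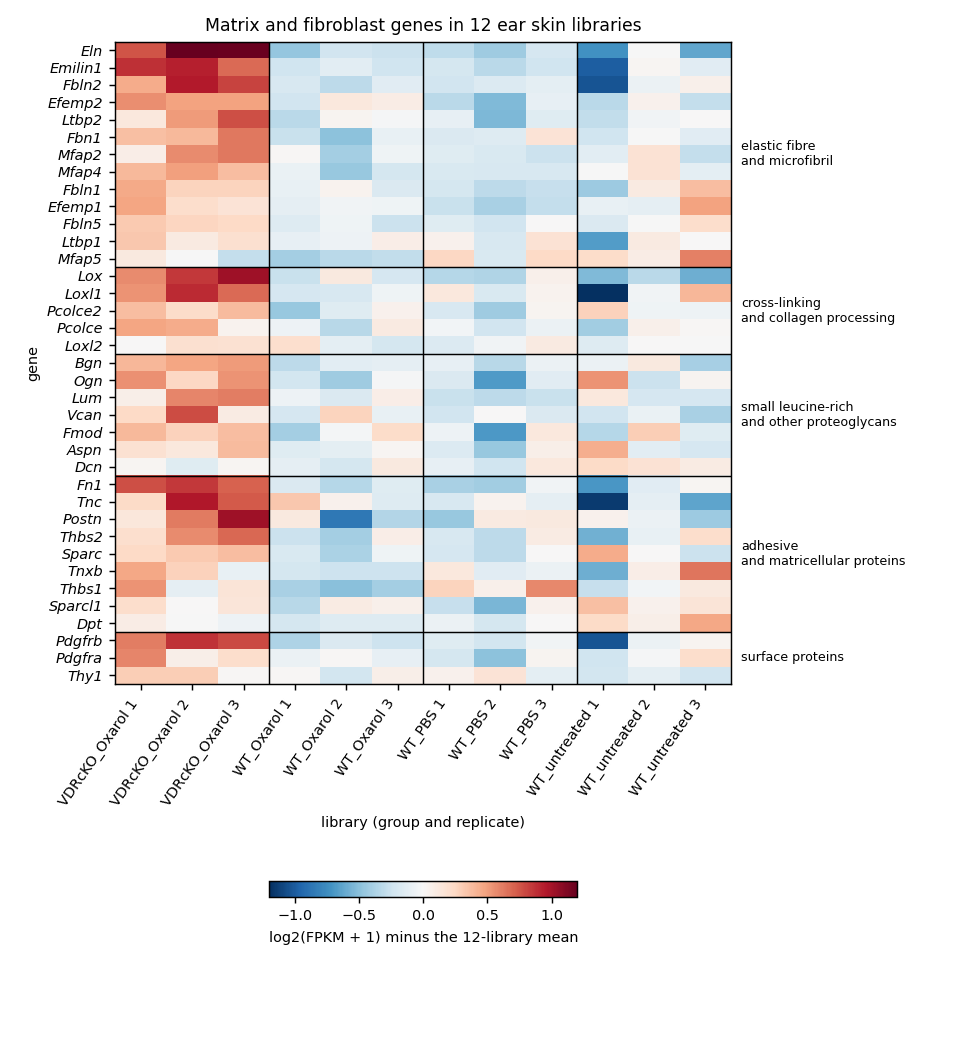
Deviation of log2(FPKM + 1) from the mean of the 12 libraries for the 37 genes tested (down the page, grouped by role) in each library (across), on a colour scale that stops at 1.2 either side of 0. The 3 columns of VDRcKO_Oxarol are red for most genes, and WT_untreated replicate 1 holds the deepest blue.

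The number of calls depended on single libraries, for the set and for all genes. Against WT_Oxarol it was 22 without WT_untreated replicate 1, 9 without WT_PBS replicate 1, 8, 5 and 8 when WT_Oxarol replicate 1, 2 or 3 was left out, and 8, 6 and 7 when VDRcKO_Oxarol replicate 1, 2 or 3 was. In the same fits, taken in the same sequence, the calls higher over all genes were 2362, 811, 617, 210, 772, 342, 337 and 507, beside 1225 with every library. Within the second library series alone, with 3 VDRcKO_Oxarol libraries against 1 WT_Oxarol library, 36 of 37 differences were above 0 with a median of 0.46, and 0 passed on 2 residual degrees of freedom, where the lone library is assumed to vary like the others. That fit called 22 genes higher among all 14059. Against WT_PBS it fell to 7 or 6 calls when WT_PBS replicate 1 or 2 was left out, and to 11, 7 or 9 when VDRcKO_Oxarol replicate 1, 2 or 3 was, with 360, 419, 584, 626 and 798 calls over all genes beside 1514. Against WT_untreated it was 9 without VDRcKO_Oxarol replicate 2, with 802 over all genes beside 1796. Within the second series the medians were 0.48 against WT_PBS and 0.43 against WT_untreated, again with 0 calls, beside 21 and 49 higher over all genes.

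The scaling of the libraries also moved the reference point. Over all genes, 1225 were called higher and 623 lower in VDRcKO_Oxarol than in WT_Oxarol ears, against 820 higher and 1292 lower after quantile normalization and 826 higher and 1151 lower after median-of-ratios scaling. Against WT_PBS 1514 were called higher and 772 lower, with 968 and 1620 after quantile normalization and 1037 and 1373 after median-of-ratios scaling. Against WT_untreated 1796 were called higher and 872 lower, with 1215 and 1849 after quantile normalization and 1328 and 1359 after median-of-ratios scaling. Quantile normalization shifted the median of all genes by -0.12, -0.13 and -0.13 in these comparisons. Under it the matrix and fibroblast genes kept a median of 0.45 against WT_Oxarol beside -0.04 over all genes, with 14 called, and under median-of-ratios scaling a median of 0.41 beside -0.00, with 9 called.

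Markers of macrophages, hair follicles and cartilage were called higher in the same libraries more often than all genes were. So were fibroblast markers, described further below, with 3, 3 and 4 of 10 against WT_Oxarol, WT_PBS and WT_untreated. Each of the other cell types had 0 to 2 markers called higher, which in such short lists can still exceed the share of all genes. The shares over all genes are the 8.71%, 10.8% and 12.8% given above for WT_Oxarol, WT_PBS and WT_untreated. Counts at an unadjusted p under 0.05 are to be read beside 4531, 4818 and 5088 of all 14059 genes, in the same order. Macrophage markers were called higher for 7, 9 and 9 of 10 against those 3 groups. Their sum was 855 to 1114 FPKM in VDRcKO_Oxarol ears, 497 to 648 FPKM in WT_Oxarol ears, 468 to 530.1 FPKM in WT_PBS ears and 486 to 579 FPKM in WT_untreated ears. Hair follicle markers were called higher for 9, 6 and 9 of 10. Their sum was 207 to 965 FPKM in VDRcKO_Oxarol ears, 5.53 to 45.5 FPKM in WT_Oxarol ears, 7.11 to 230.2 FPKM in WT_PBS ears and 9.34 to 129 FPKM in WT_untreated ears. The hair follicle ranges of VDRcKO_Oxarol and WT_PBS overlap. Cartilage markers, which matter in the ear because its core is cartilage, were called higher for 7, 8 and 7 of 14. Their sum was 2327 to 2829 FPKM in VDRcKO_Oxarol ears, 1281 to 2767 FPKM in WT_Oxarol ears, 1277 to 2877 FPKM in WT_PBS ears and 2186 to 3386 FPKM in WT_untreated ears. The cartilage sums of all groups overlap, and Matn1 was listed at 0 in every library. Endothelial markers passed as higher for 1, 0 and 1 of 10, with 7, 4 and 3 at an unadjusted p under 0.05. Their sum was 59.98 to 60.8 FPKM in VDRcKO_Oxarol ears, 38.2 to 46.5 FPKM in WT_Oxarol ears, 43.3 to 47.8 FPKM in WT_PBS ears and 42.96 to 60.3 FPKM in WT_untreated ears. Smooth muscle and pericyte markers passed as higher for 2, 1 and 1 of 9. Their sum was 176 to 188 FPKM in VDRcKO_Oxarol ears, 119 to 142 FPKM in WT_Oxarol ears, 108 to 141 FPKM in WT_PBS ears and 135 to 222 FPKM in WT_untreated ears. Skeletal muscle markers passed as higher for 1, 1 and 0 of 10, and against WT_untreated all 10 differences were below 0, with a median of -0.55 and Myh1 called lower. Their sum was 2826 to 3532 FPKM in VDRcKO_Oxarol ears, 1763 to 2931 FPKM in WT_Oxarol ears, 1509.9 to 2949 FPKM in WT_PBS ears and 3401 to 7578 FPKM in WT_untreated ears. Adipocyte markers passed for 0 of 8 in each, with 2, 2 and 0 at an unadjusted p under 0.05. Their sum was 893 to 1543 FPKM in VDRcKO_Oxarol ears, 525 to 756 FPKM in WT_Oxarol ears, 528 to 789.9 FPKM in WT_PBS ears and 692 to 2870.1 FPKM in WT_untreated ears. Schwann cell markers passed as higher for 0, 1 and 0 of 6, with 4, 3 and 1 at an unadjusted p under 0.05. Their sum was 272 to 285 FPKM in VDRcKO_Oxarol ears, 215 to 239.8 FPKM in WT_Oxarol ears, 207 to 242 FPKM in WT_PBS ears and 249 to 301 FPKM in WT_untreated ears. Keratinocyte markers gave 1 higher in each comparison and 1, 2 and 2 lower of 10. Their sum was 7777 to 8994 FPKM in VDRcKO_Oxarol ears, 7606 to 9669.9 FPKM in WT_Oxarol ears, 7516 to 10338 FPKM in WT_PBS ears and 6770.2 to 8916 FPKM in WT_untreated ears. The part of these cell types in the matrix genes' differences was not tested, and in such tissue libraries more cells of a type and more RNA per cell cannot be told apart.

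**Figure D3:**
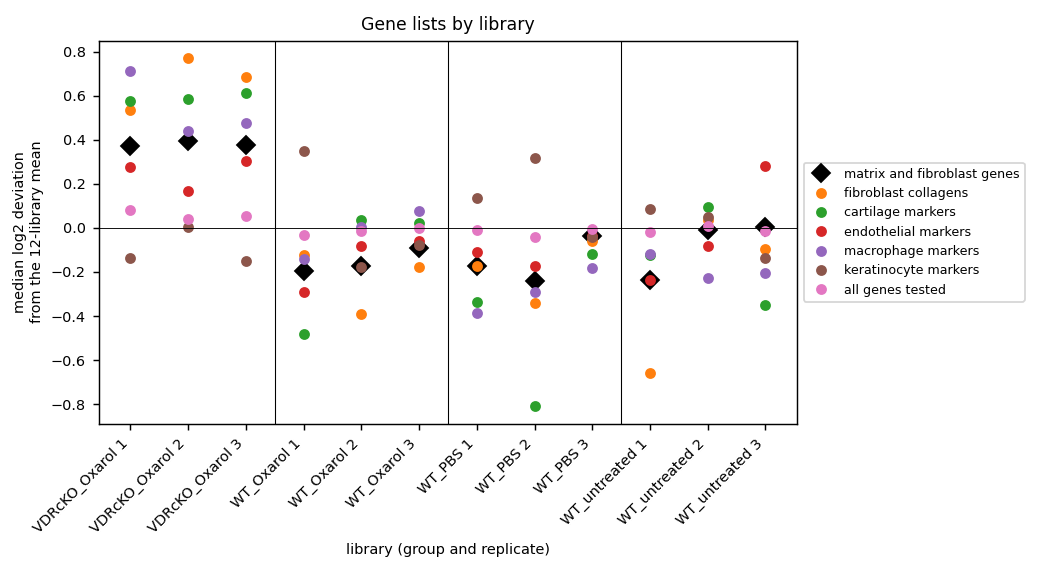
Median deviation of log2(FPKM + 1) from the 12-library mean (vertical) for 7 gene lists in each library (horizontal, grouped by VDRcKO_Oxarol, WT_Oxarol, WT_PBS and WT_untreated). Black diamonds, the 37 matrix and fibroblast genes tested, lie at 0.37 to 0.39 in the VDRcKO_Oxarol libraries, where collagens, cartilage, macrophage and endothelial markers are also above 0.

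The set was read beside 10 fibroblast markers, 6 of which are genes of the set, so these markers are no independent check of its label. Their sum was 3081 to 3641 FPKM in VDRcKO_Oxarol ears, 2176 to 2766 FPKM in WT_Oxarol ears, 2220 to 2736 FPKM in WT_PBS ears and 2742 to 2855 FPKM in WT_untreated ears. Against WT_Oxarol, WT_PBS and WT_untreated, 3, 3 and 4 of the 10 were called higher in VDRcKO_Oxarol ears. The shares called higher over all genes were 8.71%, 10.8% and 12.8%. The medians were 0.29, 0.34 and 0.35, with 10, 10 and 6 of the 10 differences above 0. Of all 14059 genes, 8440, 8481 and 8265 had differences above 0. None of the 10 was listed at 0 in all 3 libraries of a group.

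Elastic fibre and microfibril genes gave 8 calls out of 13 against WT_Oxarol, 11 against WT_PBS and 6 against WT_untreated. Over all genes tested, 8.71%, 10.8% and 12.8% were called higher, in the same order. Elastin (Eln), the protein of the rubbery core of the fibre, had 57.5, 84.8 and 78.3 FPKM in VDRcKO_Oxarol ears and 24.2, 28.7 and 28.1 FPKM in WT_Oxarol ears. It had 27.3, 24.9 and 29.3 FPKM in WT_PBS ears and 20.0, 33.6 and 21.5 FPKM in WT_untreated ears. All 3 VDRcKO_Oxarol libraries lay clear of the 9 wild type libraries, and the ratio of means to WT_Oxarol was 2.72, with a log2 difference of 1.40 ± 0.19 (SE, n = 3 each, limma adjusted p = 0.00533). Emilin1, a glycoprotein found where elastin meets the microfibril, had 7.86, 8.19 and 6.74 FPKM in VDRcKO_Oxarol ears against 3.08, 3.41 and 3.08 FPKM in WT_Oxarol ears. It did not overlap any wild type library and rose by 1.03 ± 0.21 (adjusted p = 0.0176). Emilin1 had 3.18, 2.86 and 3.08 FPKM in WT_PBS ears and 1.43, 3.90 and 3.39 FPKM in WT_untreated ears. Fbln2, a fibulin that binds fibronectin and fibrillin, had 24.7, 35.4 and 32.0 FPKM in VDRcKO_Oxarol ears against 15.5, 14.1 and 16.1 FPKM in WT_Oxarol ears, and rose by 0.95 ± 0.24 (adjusted p = 0.0317). Fbln2 had 15.1, 15.8 and 16.3 FPKM in WT_PBS ears and 8.19, 16.9 and 18.6 FPKM in WT_untreated ears. The lowest of these wild type values was again that of WT_untreated replicate 1.

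Fbn1, the main fibrillin of adult skin, had 13.2, 13.5 and 16.2 FPKM in VDRcKO_Oxarol ears against 8.20, 6.89 and 9.39 FPKM in WT_Oxarol ears. Its lowest VDRcKO_Oxarol library lay above the highest wild type library, 11.4 FPKM in WT_PBS, and it rose by 0.74 ± 0.13 (adjusted p = 0.0121). Fbn1 had 8.81, 8.97 and 11.4 FPKM in WT_PBS ears and 8.39, 10.03 and 9.09 FPKM in WT_untreated ears. Mfap4, a microfibril-associated protein, had 114, 123 and 113 FPKM in VDRcKO_Oxarol ears against 82.6, 63.5 and 75.2 FPKM in WT_Oxarol ears, without overlap, and rose by 0.66 ± 0.10 (adjusted p = 0.00765). Efemp2, a fibulin needed for elastic fibre assembly, had 26.3, 24.9 and 25.01 FPKM in VDRcKO_Oxarol ears against 14.8, 19.4 and 18.8 FPKM in WT_Oxarol ears (0.51 ± 0.14, adjusted p = 0.0416). Efemp2 had 13.8, 11.9 and 16.4 FPKM in WT_PBS ears and 13.8, 18.3 and 14.2 FPKM in WT_untreated ears. Its WT_PBS libraries were the farthest from VDRcKO_Oxarol, with a difference of 0.82 ± 0.14 (adjusted p = 0.0069). Mfap2 had a difference of 0.58 ± 0.17 (adjusted p = 0.0474) and Fbln5, which tethers elastin to cells, one of 0.43 ± 0.11 (adjusted p = 0.0319). Of the 22 alternatives tried, the calls against WT_Oxarol were lost under 15 for Mfap2, 11 for Efemp2, 10 for Fbln5, 5 for Emilin1 and 2 for Fbn1. Against WT_PBS they were lost under 9 for Fbln5, 8 for Mfap2 and 7 each for Fbn1 and Fbln2, and against WT_untreated under 9 for Mfap4 and 4 each for Fbn1 and Fbln2.

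The other 5 elastic fibre genes tested did not pass against WT_Oxarol, with differences of 0.24 to 0.57. Ltbp2, a latent binding protein, reached 0.73 ± 0.18 (adjusted p = 0.027) against WT_PBS, and so did Efemp1 at 0.60 ± 0.15 (adjusted p = 0.0245) and Fbln1 at 0.60 ± 0.17 (adjusted p = 0.0388). These calls were lost under 6 of 21 alternatives for Ltbp2, 6 of 22 for Efemp1 and 11 of 22 for Fbln1. Ltbp2 had 1.27, 1.97 and 2.54 FPKM in VDRcKO_Oxarol ears, 0.658, 1.12 and 1.07 FPKM in WT_Oxarol ears, 0.946, 0.434 and 0.884 FPKM in WT_PBS ears and 0.690, 1.02 and 1.09 FPKM in WT_untreated ears. Efemp1 had 55.3, 45.8 and 44.3 FPKM in VDRcKO_Oxarol ears, 36.5, 38.3 and 37.99 FPKM in WT_Oxarol ears, 32.7, 29.8 and 32.2 FPKM in WT_PBS ears and 36.9, 36.4 and 55.5 FPKM in WT_untreated ears. Both were lowest in WT_PBS ears by their means, and Efemp1 had 1 high WT_untreated library, replicate 3. Ltbp1 passed in none of the comparisons. Mfap5, a microfibril glycoprotein, was the elastic fibre gene that did not lean upwards against every group, with differences of -0.16 against WT_PBS and -0.36 against WT_untreated, neither past the test. Mfap5 had 57.4, 52.8 and 43.3 FPKM in VDRcKO_Oxarol ears, 39.6, 42.0 and 42.9 FPKM in WT_Oxarol ears, 63.0, 46.5 and 62.7 FPKM in WT_PBS ears and 61.7, 56.3 and 81.1 FPKM in WT_untreated ears.

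Of the genes for cross-linking and collagen processing, Lox alone passed against WT_Oxarol. Lox, the enzyme that oxidises lysines of elastin and collagen, had 27.9, 34.2 and 38.5 FPKM in VDRcKO_Oxarol ears against 15.2, 20.1 and 15.9 FPKM in WT_Oxarol ears. In WT_PBS ears it had 14.4, 14.2 and 19.3 FPKM and in WT_untreated ears 12.5, 14.6 and 12.0 FPKM, so no wild type library reached the lowest VDRcKO_Oxarol one. The difference was 0.93 ± 0.16 against WT_Oxarol (adjusted p = 0.0092), 1.03 ± 0.16 against WT_PBS (adjusted p = 0.00418) and 1.29 ± 0.16 against WT_untreated (adjusted p = 0.00183). Its relative Loxl1 had 28.6, 36.8 and 31.8 FPKM in VDRcKO_Oxarol ears against 16.8, 16.8 and 18.7 FPKM in WT_Oxarol ears. Loxl1 did not overlap any wild type library yet did not pass (0.85 ± 0.47, adjusted p = 0.231). Its WT_untreated replicate 1 stood at 4.08 FPKM, against 18.9 and 25.9 FPKM in the other libraries of that group, and without that library the same difference of 0.85 passed (adjusted p = 0.00349). Loxl2 differed by 0.17. Pcolce and Pcolce2, which help to trim procollagen, differed by 0.42 and 0.50 and missed the threshold, while Pcolce2 passed against WT_PBS (0.52 ± 0.15, adjusted p = 0.0436), a call lost under 11 of 22 alternatives.

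**Figure D4:**
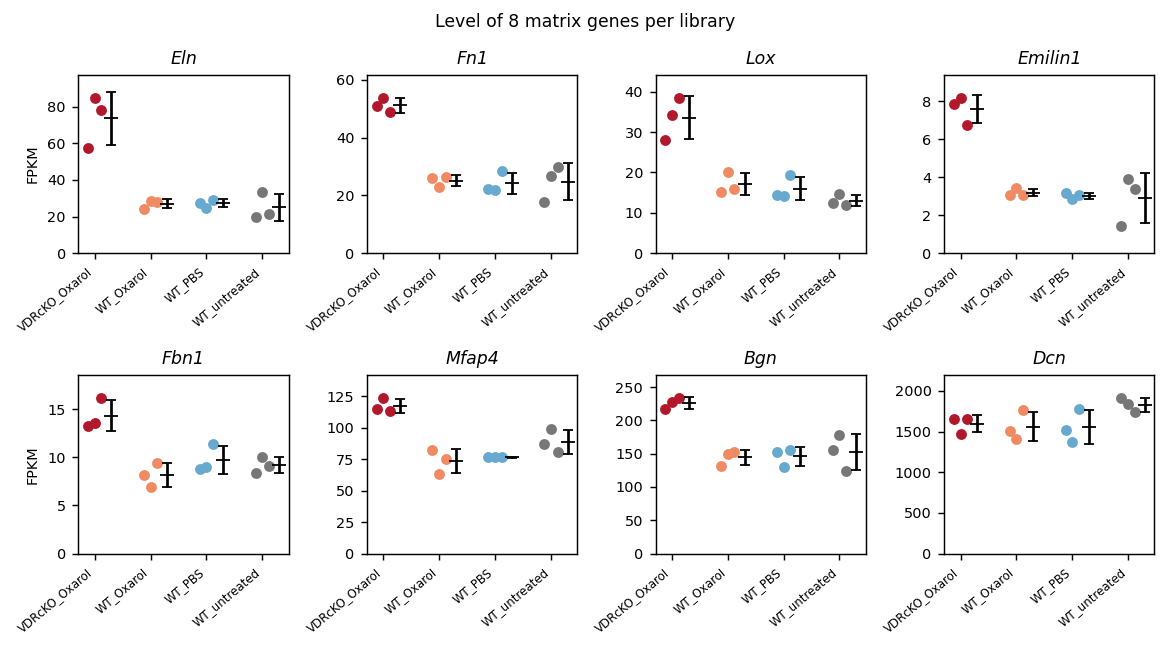
FPKM (vertical, starting at 0) of 8 genes in each of the 12 libraries, with VDRcKO_Oxarol on the left and then WT_Oxarol, WT_PBS and WT_untreated. Dots are libraries, and the black mark beside them is the mean ± SD of 3. For Eln, Fn1, Lox, Emilin1, Fbn1, Mfap4 and Bgn all VDRcKO_Oxarol dots lie above all others, and for Dcn the groups overlap.

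The proteoglycans were divided. Biglycan (Bgn), a small leucine-rich proteoglycan, had 217, 228 and 233 FPKM in VDRcKO_Oxarol ears against 131, 150.2 and 152 FPKM in WT_Oxarol ears. It lay above all 9 wild type libraries and rose by 0.64 ± 0.13 (adjusted p = 0.0159), a call lost under 4 of the 22 alternatives. Bgn had 153, 130 and 156 FPKM in WT_PBS ears and 156, 178 and 124 FPKM in WT_untreated ears. Its close relative Dcn had 1651, 1473 and 1657 FPKM in VDRcKO_Oxarol ears, 1511, 1409.6 and 1761 FPKM in WT_Oxarol ears, 1514, 1376 and 1777 FPKM in WT_PBS ears and 1910.3, 1839.5 and 1742 FPKM in WT_untreated ears. The difference of Dcn from WT_Oxarol was 0.03 ± 0.13 (adjusted p = 0.88), and from WT_untreated, all of whose libraries were higher, it was -0.20 ± 0.13 (adjusted p = 0.286). Lum, which also spaces collagen fibrils, did not pass against WT_Oxarol (0.47, adjusted p = 0.0601) but passed against WT_PBS (0.70 ± 0.15, adjusted p = 0.0149) and WT_untreated (0.51 ± 0.15, adjusted p = 0.0384). Lum lost these calls under 5 and 13 of 22 alternatives. Lum had 290.4, 417 and 425 FPKM in VDRcKO_Oxarol ears, 266, 246 and 293 FPKM in WT_Oxarol ears, 231, 223 and 229.8 FPKM in WT_PBS ears and 303, 242 and 241 FPKM in WT_untreated ears. The WT_PBS libraries of Lum were the tightest of the groups and the lowest. Osteoglycin (Ogn) passed against WT_PBS (0.78 ± 0.21, adjusted p = 0.0328) and versican (Vcan), a large hyaluronan-binding proteoglycan, against WT_untreated (0.61 ± 0.18, adjusted p = 0.0436). The call of Ogn was lost under 8 of 22 alternatives and that of Vcan under 14 of 21. Ogn had 62.2, 50.5 and 61.9 FPKM in VDRcKO_Oxarol ears, 36.2, 31.3 and 41.9 FPKM in WT_Oxarol ears, 37.4, 26.01 and 38.4 FPKM in WT_PBS ears and 61.98, 35.2 and 43.4 FPKM in WT_untreated ears. Vcan had 3.34, 5.30 and 2.93 FPKM in VDRcKO_Oxarol ears, 2.20, 3.43 and 2.45 FPKM in WT_Oxarol ears, 2.14, 2.68 and 2.26 FPKM in WT_PBS ears and 2.12, 2.47 and 1.81 FPKM in WT_untreated ears. Ogn overlapped the wild type through WT_untreated replicate 1, and Vcan through WT_Oxarol replicate 2. Fmod and Aspn differed by 0.41 and 0.31 from WT_Oxarol and passed in none of the comparisons.

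Among the adhesive and matricellular genes 3 of 9 passed as higher against WT_Oxarol, 1 against WT_PBS and 2 against WT_untreated. Of all genes tested, 8.71%, 10.8% and 12.8% were called higher in these comparisons, so the count against WT_PBS was near that share. Fibronectin (Fn1), the adhesive protein on which other fibres assemble, had 51.1, 53.8 and 48.8 FPKM in VDRcKO_Oxarol ears against 25.9, 23.0 and 26.5 FPKM in WT_Oxarol ears. It had 22.3, 21.7 and 28.5 FPKM in WT_PBS ears and 17.8, 26.7 and 30.0 FPKM in WT_untreated ears. The groups did not overlap, and the difference from WT_Oxarol was 1.00 ± 0.17 (adjusted p = 0.0092). Periostin (Postn), which binds collagen and integrins, had 132, 186 and 244 FPKM in VDRcKO_Oxarol ears against 130.4, 66.0 and 94.0 FPKM in WT_Oxarol ears, a narrow separation (0.96 ± 0.28, adjusted p = 0.0486). Its call was lost under 15 of 22 alternatives.

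Thrombospondin 1 (Thbs1), a matricellular protein that can release growth factor from its latent form, passed against WT_Oxarol only. It had 46.0, 29.1 and 35.1 FPKM in VDRcKO_Oxarol ears, 23.7, 21.8 and 23.4 FPKM in WT_Oxarol ears, 37.8, 32.7 and 47.3 FPKM in WT_PBS ears and 25.7, 30.6 and 34.1 FPKM in WT_untreated ears. WT_Oxarol was the lowest group, without overlap with any other, as it was for Mfap5. The difference of VDRcKO_Oxarol from WT_Oxarol was 0.63 ± 0.17 (adjusted p = 0.0408, lost under 11 of 22 alternatives), from WT_PBS -0.10 ± 0.17 (adjusted p = 0.706) and from WT_untreated 0.26 ± 0.17 (adjusted p = 0.301). Tenascin C (Tnc), a glycoprotein of remodelled tissue, had 14.9, 25.5 and 21.7 FPKM in VDRcKO_Oxarol ears and 5.14, 11.6 and 7.75 FPKM in WT_untreated ears, and rose by 1.27 ± 0.25 (adjusted p = 0.0108) against that group, a call lost under 2 of 22 alternatives. Its difference of 0.57 from WT_Oxarol, which had 16.03, 13.1 and 11.2 FPKM, did not pass (adjusted p = 0.152). Thbs2, Sparc, Tnxb, Sparcl1 and Dpt passed in none of the comparisons, with differences of 0.18 to 0.68 from WT_Oxarol. Sparc had 737, 779 and 806 FPKM in VDRcKO_Oxarol ears, 551, 479.9 and 604 FPKM in WT_Oxarol ears, 542, 503 and 629 FPKM in WT_PBS ears and 854, 627 and 524 FPKM in WT_untreated ears. Thbs2 had 20.6, 27.01 and 29.4 FPKM in VDRcKO_Oxarol ears, 14.7, 13.2 and 19 FPKM in WT_Oxarol ears, 15.6, 14.1 and 19.2 FPKM in WT_PBS ears and 11.6, 16.7 and 20.9 FPKM in WT_untreated ears. For both, the 3 VDRcKO_Oxarol libraries lay above those of WT_Oxarol and WT_PBS and overlapped WT_untreated.

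Of the surface proteins, Pdgfrb, the platelet-derived growth factor receptor of pericytes and fibroblasts, passed in all 3 comparisons. It had 9.31, 11.3 and 10.7 FPKM in VDRcKO_Oxarol ears against 4.22, 4.995 and 4.69 FPKM in WT_Oxarol ears, without overlap, and rose by 1.02 ± 0.23 (adjusted p = 0.0221). Pdgfrb had 5.12, 4.78 and 5.57 FPKM in WT_PBS ears and 2.30, 5.41 and 5.92 FPKM in WT_untreated ears. Its relative Pdgfra, the receptor used most to mark fibroblasts, differed by 0.34 (adjusted p = 0.188) and passed in none. Thy1, a surface glycoprotein of fibroblasts, passed against WT_untreated (0.39 ± 0.11, adjusted p = 0.0344, lost under 9 of 22 alternatives) and differed by 0.25 from WT_Oxarol (adjusted p = 0.152). Thy1 had 45.3, 45.1 and 36.9 FPKM in VDRcKO_Oxarol ears, 37.1, 31.3 and 38.4 FPKM in WT_Oxarol ears, 38.1, 41.1 and 33.7 FPKM in WT_PBS ears and 31.3, 33.6 and 31.03 FPKM in WT_untreated ears. The groups of Thy1 overlapped except against WT_untreated. Calls of Pdgfrb and Fbln2 against WT_Oxarol were each lost under 8 of 22 alternatives, and those of Pdgfrb against WT_PBS and WT_untreated under 7 and 3. Those of Eln, Fn1, Lox and Mfap4 against WT_Oxarol were lost under 1, which was the second library series alone.

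**Figure D5:**
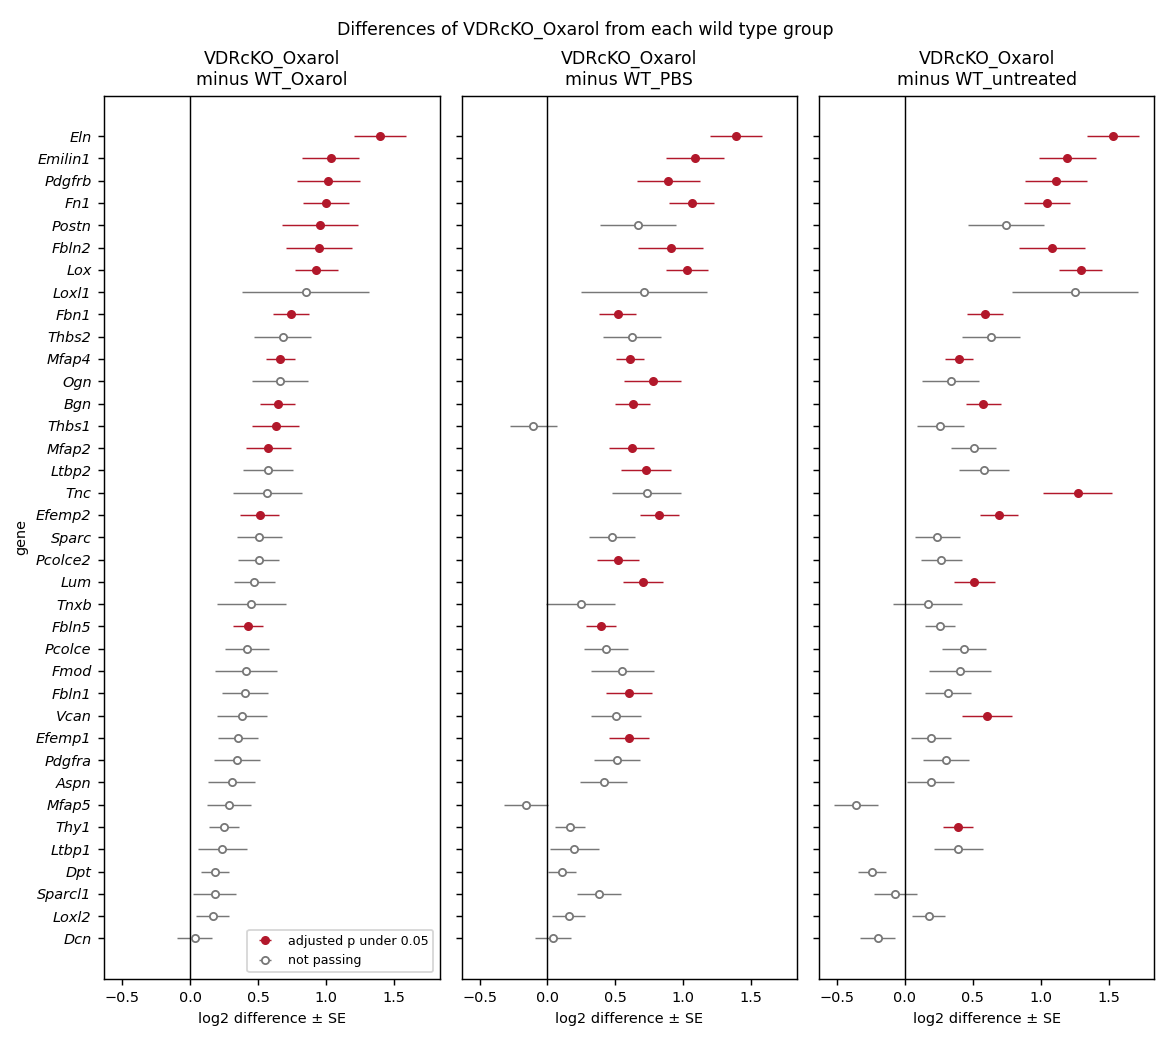
Log2 difference ± SE (horizontal) of the 37 genes tested (down the page, in the order of their difference from WT_Oxarol) for VDRcKO_Oxarol against each wild type group. Filled red points passed at an adjusted p under 0.05, and Dcn lies nearest to 0 in the first panel.

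Within the wild type no gene of the set passed the test. Between WT_Oxarol and WT_PBS ears 0 of 37 genes passed in limma, 2 had an unadjusted p under 0.05 and the median difference was 0.01, where 0.306% of all genes were called in either direction. In 3 genes all WT_Oxarol libraries lay above all WT_PBS libraries, beside 7.53% of all genes, and in 3 they lay below, beside 8.36%. Thbs1 had the smallest p, with a difference of -0.73 ± 0.17 (adjusted p = 0.158). Between WT_PBS and WT_untreated ears 0 of 37 passed in limma and 3 had an unadjusted p under 0.05, where 0.00711% of all genes were called, and the median was -0.08. Between WT_Oxarol and WT_untreated ears 0 of 37 passed in limma and 5 had an unadjusted p under 0.05, where 1.31% of all genes were called, and the median was -0.04. Over all 14059 genes, 1047, 1312 and 2403 had an unadjusted p under 0.05 in these 3 comparisons, in the order given. Within the first library series the medians were 0.01, -0.10 and -0.00 for these 3 comparisons, with 0 calls in each.

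Dpt, which binds decorin and helps collagen fibrils to form, and Mfap5 came nearest to the threshold between WT_Oxarol and WT_untreated. Dpt had 172, 179 and 179 FPKM in WT_Oxarol ears against 233, 209.8 and 275 FPKM in WT_untreated ears, without overlap, with a difference of -0.43 ± 0.10 (adjusted p = 0.0803). Mfap5 differed by -0.65 ± 0.16 between the same groups (adjusted p = 0.0827), also without overlap. A p that misses the threshold does not show that these groups were alike.

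Genes that work beside the set were counted from lists chosen by role, to be read against the same shares of all genes, 8.71% against WT_Oxarol, 10.8% against WT_PBS and 12.8% against WT_untreated. Of 11 fibroblast collagens, 10 were called higher and 0 lower in VDRcKO_Oxarol than in WT_Oxarol ears, with a median of 0.85, and against WT_PBS and WT_untreated 8 and 10 were called higher. Col5a2, which sets the width of collagen fibrils with Col5a1, had 24.98, 29.0 and 26.6 FPKM in VDRcKO_Oxarol ears against 11.6, 11.72 and 12.1 FPKM in WT_Oxarol ears, a difference of 1.12 ± 0.17 (adjusted p = 0.00721). Of 28 related matrix proteins tested, 4 were called higher and 0 lower against WT_Oxarol, with a median of 0.35: the calcium-binding Smoc1 (1.06 ± 0.30) and Smoc2 (0.71 ± 0.13), Igfbp7 (0.80 ± 0.20) and the basement membrane proteoglycan Hspg2 (0.45 ± 0.13). Against WT_PBS 4 of the 28 were called higher and against WT_untreated 7, with 1 called lower in both, Mfap3.

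Of 15 matrix receptors tested, 4 were called higher and 0 lower against WT_Oxarol: the collagen receptors Ddr1 (1.06 ± 0.23) and Itga11 (0.89 ± 0.20), and the integrin subunits Itgb1 (0.30 ± 0.08) and Itgav (0.40 ± 0.11). Against WT_PBS and WT_untreated 6 of the 15 were called higher in each and 0 lower. Of 16 genes of transforming growth factor beta signalling and its targets, 0 passed against WT_Oxarol in limma, with a median of 0.27. An unadjusted p under 0.05 was found for 4 of the 16, beside 4531 of all 14059 genes. The smallest adjusted p was that of the ligand Tgfb3 (0.84 ± 0.26, adjusted p = 0.0552). Against WT_PBS 2 of the 16 were called higher and against WT_untreated 3, with 1 called lower in both, Smad4. Of 11 fibroblast transcription factors, 1 passed, Osr1 (0.72 ± 0.20, adjusted p = 0.0426), with a median of 0.13, a share near that of all genes. Against WT_PBS and WT_untreated 0 passed in limma, with 1 and 0 at an unadjusted p under 0.05, beside 4818 and 5088 of all 14059 genes. Mfap3, Smad4 and Myh1 were named after their values were seen, as the genes of their lists called lower.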

How the data were processed

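The 12 tables hold 1 value per gene symbol, taken as the authors' deposited FPKM, a unit inferred from the tools and the values since no header prints it. The submitters' processing notes name TopHat2 2.0.8, Bowtie2 2.1.0, Cufflinks 2.1.1 and mm9. Their settings, and whether counting used strand, were not given in the sources used here, so reads of overlapping or antisense genes may be mixed. Libraries were made with an NEBNext Ultra kit, per the labels' protocols. The genes and lists were chosen with earlier results of these data known. The 14059 genes that reached 1 FPKM in 3 or more of 12 libraries were tested as log2(FPKM + 1), which understates changes of low genes, in R 4.3.3 with limma 3.58.1: a fit of 4 group means, an intensity trend, 8 residual degrees of freedom and Benjamini-Hochberg adjustment per comparison at 0.05. Errors after ± are moderated standard errors unless named SD. The test was checked on simulated data. All 38 genes could be named; of other lists, up to 4 genes by adjusted p. Whether the libraries are of separate animals is not labelled, so the p-values cover only the spread among these samples, which may be technical. Read numbers were estimated from low values, of which 12.7% to 20.2% of low genes lay on the steps; no counts were used. Alternatives were quantile normalization, median-of-ratios scaling, a filter of 5 FPKM or none, a pseudocount of 0.1, a fit of the compared groups alone, a term for the library series, 316 zeros of expressed genes set to missing, a robust variance model and leaving out each library; each library series alone was added after seeing the data. No coordinates of the mm9 build are given. Python 3.11.15 with matplotlib 3.10.9 drew the figures.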

Additional observations from a re-analysis of the deposited data

How the results depend on the processing

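Counts of the 37 genes called higher in VDRcKO_Oxarol than in WT_Oxarol ears, 14 as reported, came to 9 with median-of-ratios scaling, 4 with the library series as a term (Eln, Fn1, Lox and Mfap4) and 0 in the second series alone, where calls over all genes fell to 183 and 22, beside 1225 as reported, and ranged from 5 to 22 when 1 library was left out. Against WT_PBS, 18 as reported, they came to 6 with the series term and 0 in the second series alone, beside 386 and 21 over all genes and 1514 as reported, with a range of 6 to 25. Against WT_untreated, 14 as reported, they came to 4 with only the 2 groups compared, 7 with the series term and 0 in the second series alone, beside 338, 700 and 49 over all genes and 1796 as reported, with a range of 9 to 15. Between WT_Oxarol and WT_untreated the series term gave 1 call, Dpt, lower (adjusted p = 0.0475), and leaving out 1 library gave 0 to 0 calls in each of the 3 wild type comparisons. Median-of-ratios scaling called Dpt lower against WT_untreated in VDRcKO_Oxarol ears (-0.33, adjusted p = 0.0466). The cause of these shifts was not tested, and a left-out library or a single series also leaves fewer samples. None of the differences reported as called changed sign under any alternative run. Against WT_untreated, where neither was called as reported, Efemp1 ranged between -0.20 and 0.39 and Fbln1 between -0.04 and 0.49. For single genes, 4560 values kept their side of the threshold, 253 lost it and 53 gained it. No paired analysis was possible because the labels number no replicates: the numbers used here were given in accession order, name a library and tie none to one of another group. With 3 libraries a group and read numbers known only relative to one another, differences of the lowest genes, such as Fbn2 and Ltbp2, are the least certain.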
